A study of Mus musculus with 9 samples.

Results

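The genes described here are growth factor ligands, receptors and binding proteins of the fibroblast growth factor (FGF), platelet-derived growth factor (PDGF), vascular endothelial growth factor (VEGF), angiopoietin, insulin-like growth factor (IGF), hepatocyte growth factor (HGF) and epidermal growth factor (EGF) families. They were chosen by gene symbol, and 60 of the 34745 genes in the deposited table matched. Of these, 48 passed the expression filter and were tested, and 12 did not pass it. Their levels come from RNA sequencing of the spinal cord of mice whose cord was cut through at thoracic level T9.

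The groups were day 0 (titled N, a letter the labels do not explain), day 3 and day 21 after injury, with 3 libraries each. The libraries of days 3 and 21 are called injured below, and the day 0 titles do not say whether that cord was left uncut. The sources used here give neither strain, sex nor age, nor how much cord was taken, and no sham-operated group is among the samples. Whether each library is a different mouse is also not stated, so the p-values rest on a spread between samples that may be only technical. Totals per library were 14299679 to 24022923 counts. Levels are given as FPKM (counts scaled to gene model length and library total), as mean ± SD over 3 libraries where a mean is given, and differences as log2 fold changes ± SE from edgeR. The gene loci are those of mouse build GRCm38, with 41 of the 60 at the same start and end as in GENCODE M21.

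Most of these factors are secreted proteins that bind receptor tyrosine kinases on neighbouring cells and drive division, migration or survival. VEGFs and angiopoietins act mainly on endothelial cells, PDGFs on mural cells, fibroblasts and oligodendrocyte precursors, FGFs and neuregulins on neurons and glia, and HGF on epithelial and many other cells. IGFs circulate and lie in tissue bound to IGF binding proteins, which hold them in store and control their access to the IGF1 receptor.

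Day 21 replicate 2 stood apart from the other day 21 libraries. Its log2 CPM (counts scaled to library total) correlated at 0.943 and 0.935 with replicates 1 and 3, which correlated at 0.987 with each other, and the pairs at days 0 and 3 correlated at 0.985 to 0.989. The gap went in part with the length of the gene model (Spearman correlation -0.481 over all tested genes and -0.444 over the 48 growth factor genes). Genes under 2000 bases lay above the mean of the other day 21 libraries by a median of 0.62 log2 units in this library, and genes of 6000 bases or more lay below it by a median of -0.37. Among the tested growth factor genes these medians were 0.57 (6 genes) and -0.52 (20 genes). Fgf2 lay lowest, at -6.17, followed by the IGF receptor Igf1r at -1.99, and Pdgfa (1.13), Igfbp2 (1.07) and Igfbp6 (1.02) lay highest. Fgf2 (8676 bases), Igf1r (4489) and Pdgfa (5221) lay far from the medians of all genes of like length. That median was -0.04 for genes of 4000 to 6000 bases. What sets this library apart was not tested, and results whose call changed without it are given both ways.

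**Figure D1:**
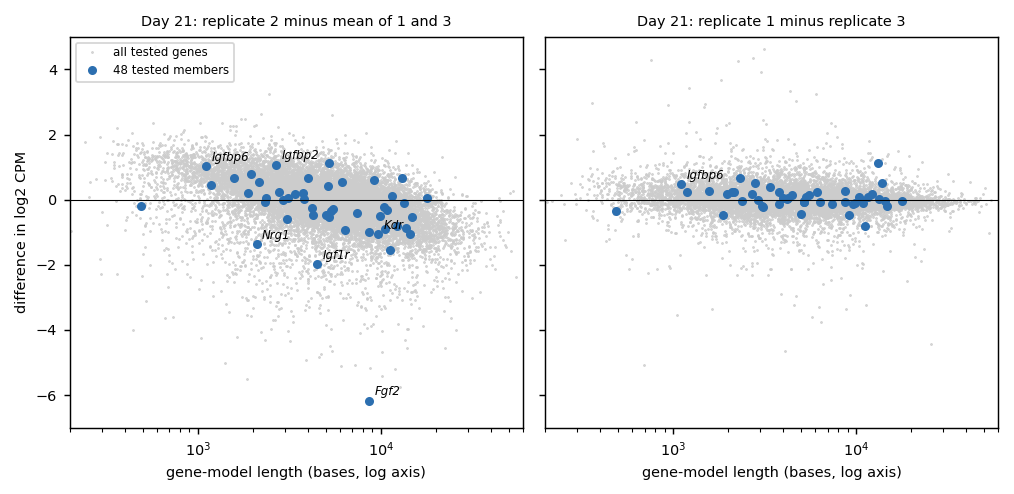
Difference in log2 CPM of day 21 replicate 2 from the mean of replicates 1 and 3 (left) and of day 21 replicate 1 from replicate 3 (right), against gene model length in bases on a log axis, with the 48 tested growth factor genes in blue and all tested genes in grey. In replicate 2 Fgf2 lies at -6.17 and long genes lie mostly below 0.

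Markers of whole cell types also moved between the days, and in bulk tissue a change in the number of cells of a type and a change in RNA per cell cannot be told apart. The summed FPKM of 6 endothelial markers ranged over 50.2 to 63.2 at day 0, 159 to 168 at day 3 and 53.6 to 76.7 at day 21. That of 6 fibroblast markers ranged over 38.4 to 40.0, 548 to 551 and 280 to 354, and that of 6 macrophage markers over 21.6 to 23.8, 689 to 698 and 445 to 674. Schwann cell markers summed to 90.7 to 131, 382 to 389 and 180 to 239, and pan-neuronal markers to 592 to 649, 326 to 329 and 484 to 491. Markers of peripheral sensory neurons, whose cell bodies lie outside the cord, summed to 0.068 to 0.13, 29.4 to 29.6 and 4.94 to 5.78. Skeletal muscle markers summed to 9.53 to 13.2, 4.35 to 4.66 and 79.2 to 130. Mural cell markers summed to 50.2 to 58.2, 70.7 to 72.5 and 78.0 to 100. The part of these shifts in the growth factor results was not tested.

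The comparison of day 3 with day 0 addresses the early response. Of the 48 tested genes, 21 were higher at day 3 and 13 were lower at an edgeR adjusted p under 0.05, against 24.8% higher and 19.5% lower (44.3% in either direction) of all 16494 tested genes. The median log2 fold change was 0.36 over the 48 genes and 0.01 over all genes. The direction split by family: 7 of 8 tested IGF genes, 3 of 3 angiopoietins and both HGF genes were higher with none lower, while 9 of 17 FGF genes were lower and 3 higher. Of 4 PDGF genes 2 were higher and 1 lower, of 7 VEGF genes 2 were higher and 1 lower, and of 7 EGF and neuregulin genes 2 were higher and 2 lower. The ranges of the 3 libraries did not overlap for 41 of the 48, against 67.5% of all tested genes.

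By day 21, 15 of the 48 genes were higher and 5 lower than at day 0, against 17.9% and 11.3% (29.2% in either direction) of all tested genes. The medians were 0.08 over the 48 and 0.02 over all genes. Between day 21 and day 3, 7 were higher and 13 lower, against 11.7% and 16.1% (27.8% in either direction) of all tested genes, with medians of -0.08 and 0.02. Group ranges did not overlap for 25 of the 48 in the comparison with day 0 and for 28 in that with day 3, where 41.3% and 44.4% of all tested genes did not. Without day 21 replicate 2, 49 genes were tested, and 18 were higher and 8 lower at day 21 than at day 0, where 25.1% and 22.4% of all genes then passed. The count of lower genes at day 21 against day 0 was 3, 3 and 1 without day 0 replicate 1, 2 and 3, and that of higher genes was 9 without day 0 replicate 1. Between day 21 and day 3, 13 were higher and 17 lower of the 49 without day 21 replicate 2, where 23.5% and 25.7% of all genes then passed. The 3 comparisons share libraries, so their results are not independent.

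**Figure D2:**
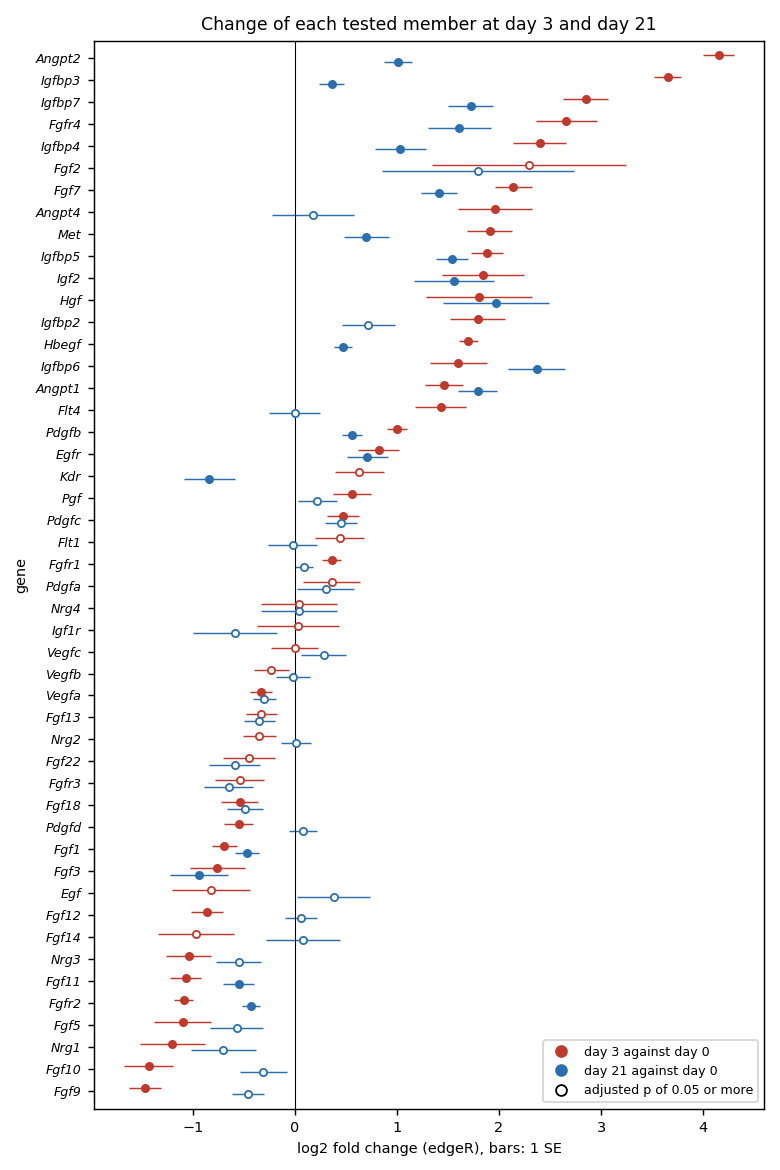
Log2 fold change with its SE for each of the 48 tested growth factor genes at day 3 (red) and day 21 (blue) against day 0, ordered by the day 3 value, with open points where the edgeR adjusted p was 0.05 or more. Angpt2 at 4.15 and Igfbp3 at 3.65 lie farthest right at day 3, and Fgf9 at -1.47 and Fgf10 at -1.43 farthest left.

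Over the 3 days, 36 genes were called in at least 1 comparison and 12 in none. The most common course, in 9 genes, was higher at day 3 than at day 0, and lower at day 21 than at day 3 while still above day 0: Angpt2, Fgf7, Fgfr4, Hbegf, Igfbp3, Igfbp4, Igfbp7, Met and Pdgfb. A further 6 were higher at both days with no call between them: Angpt1, Egfr, Hgf, Igf2, Igfbp5 and Igfbp6. Angpt4, Flt4 and Igfbp2 were higher at day 3 and lower again at day 21, with no call between day 21 and day 0. Fgf9, Fgf10, Fgf12 and Pdgfd had the opposite course, lower at day 3 and higher again at day 21. How many of all tested genes were called in at least 1 comparison or had each course was not counted. These numbers therefore do not set the growth factor genes apart from other genes.

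**Figure D3:**
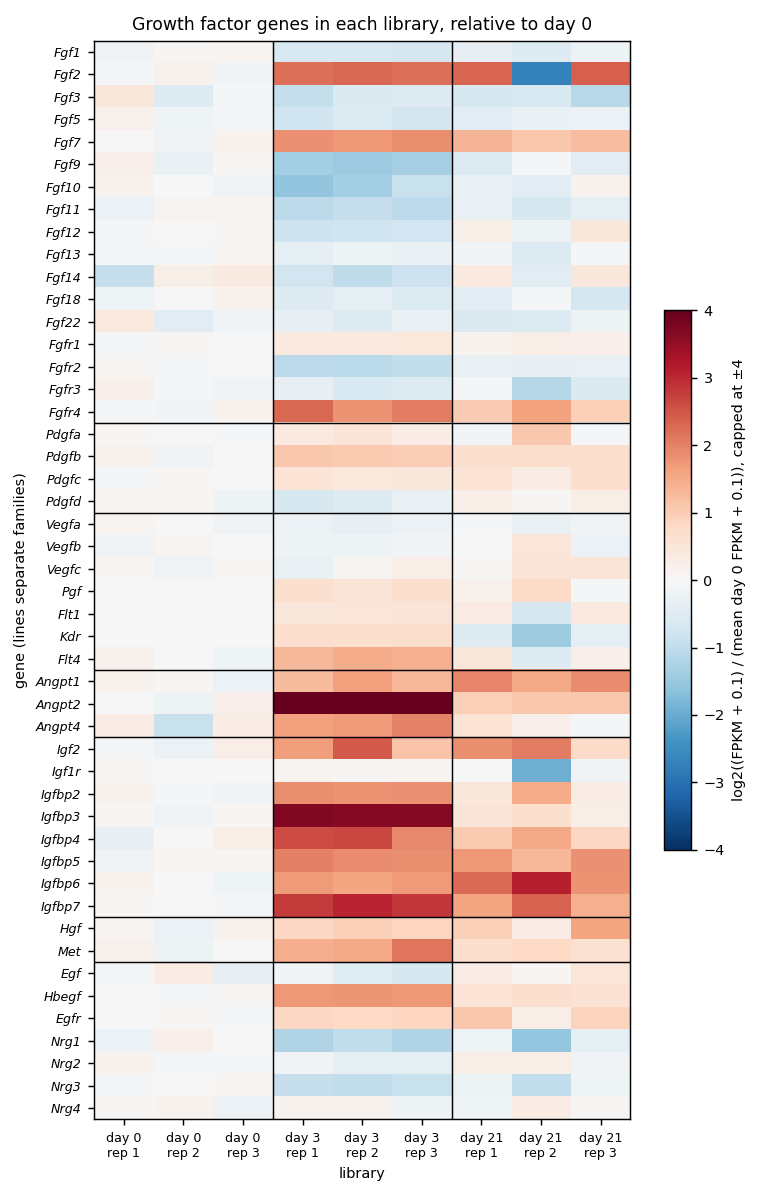
Level of each tested growth factor gene (rows, by family) in each of the 9 libraries (columns), as the log2 ratio of FPKM + 0.1 to the mean day 0 FPKM + 0.1, with colours capped at 4 and -4. Igfbp3, Igfbp7 and Angpt2 are the darkest red at day 3, and in day 21 replicate 2 Fgf2 and Igf1r are the deepest blue.

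The angiopoietins are ligands of the endothelial receptor Tie2. Angpt2, which endothelial cells release and which loosens vessel walls where it opposes Angpt1, had the highest fold of the 48 genes at day 3. It had 0.699, 0.599 and 0.834 FPKM at day 0, 13.2, 12.9 and 13.2 FPKM at day 3, and 1.47, 1.61 and 1.61 FPKM at day 21. The 3 groups did not overlap, and day 3 lay far above both others. Angpt2 (chromosome 8, 18690263 to 18741562, GRCm38, minus strand) was 17.7-fold higher at day 3 than at day 0 (log2 4.15 ± 0.15, edgeR adjusted p 1.07e-07). At day 21 it was lower than at day 3 by a log2 fold change of -3.14 ± 0.14 (edgeR adjusted p 2.22e-06) and still 2.01-fold above day 0 (adjusted p 0.000911).

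Angpt1, the stabilising Tie2 agonist made largely by mural cells, followed another course. It had 0.988, 0.939 and 0.747 FPKM at day 0, 2.26, 3.00 and 2.38 FPKM at day 3, and 3.74, 2.73 and 3.61 FPKM at day 21. Every injured library lay above every day 0 library, and days 3 and 21 overlapped. It rose at day 3 (log2 1.46 ± 0.19, edgeR adjusted p 0.000262) and at day 21 (log2 1.79 ± 0.19, adjusted p 0.000193) against day 0. The difference between day 21 and day 3 was 0.33 ± 0.18 with adjusted p 0.216, and passed without day 21 replicate 2 (0.47, adjusted p 0.0261). The mural marker sum was likewise lowest at day 0 and highest at day 21, but its 5 markers did not all follow that course. At day 21 against day 3, 1 was higher and 1 lower, with a median log2 fold change of -0.36. The part of mural cells in the Angpt1 values was not tested.

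The ratio of Angpt2 to Angpt1 FPKM was 0.821 ± 0.259 at day 0, 5.23 ± 0.806 at day 3 and 0.475 ± 0.101 at day 21 (SD, n = 3 each). The libraries of no 2 days overlapped, and each pair of days gave 0.1 in a two-sided exact permutation test, the smallest p that 3 against 3 allows. Angpt4, a further Tie2 ligand, had 0.446, 0.136 and 0.438 FPKM at day 0, 1.28, 1.34 and 1.64 FPKM at day 3, and 0.544, 0.412 and 0.329 FPKM at day 21. Only day 3 stood apart, with a log2 fold change of 1.96 ± 0.36 against day 0 (edgeR adjusted p 0.00188). At day 21 Angpt4 was lower than at day 3 by a log2 fold change of -1.78 ± 0.36 (adjusted p 0.00662).

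Among the VEGF ligands Vegfa, the main driver of vessel sprouting, did not rise. Its levels were 4.01, 3.78 and 3.32 FPKM at day 0, 3.14, 2.93 and 3.10 FPKM at day 3, and 3.50, 3.02 and 3.33 FPKM at day 21. Day 3 lay below day 0 without overlap, by a log2 fold change of -0.33 ± 0.11 (edgeR adjusted p 0.0391). The gene model behind its FPKM is 10385 bases, 242% of its 4285 exon bases in GENCODE M21, so its level cannot be set beside those of other ligands. The call at day 3 was lost without day 0 replicate 1 or 2 or any of the day 3 libraries (adjusted p 0.0827 to 0.132). Limma on log2 FPKM with pseudocounts 1 and 0.1 (0.0899 and 0.0914) and edgeR with the replicate number as a block (0.0705) lost it too.

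Pgf, placental growth factor, which binds Flt1 but not Kdr, had 7.74, 7.66 and 7.75 FPKM at day 0, 12.2, 11.1 and 12.2 FPKM at day 3, and 8.75, 13.3 and 7.34 FPKM at day 21. Day 3 lay above day 0 in all 3 libraries, and the highest day 21 value was that of replicate 2. The rise at day 3 was 0.56 ± 0.19 log2 units (edgeR adjusted p 0.0386) and did not hold when any 1 day 0 or day 3 library was left out (0.0707 to 0.123). Day 21 against day 3 was -0.35 (adjusted p 0.213), and without day 21 replicate 2 Pgf was lower at day 21 by -0.61 (0.00148). Vegfb, a ligand of Flt1 at 33.4 to 54.3 FPKM over the 9 libraries, and Vegfc, a ligand of lymphatic endothelium at 0.925 to 1.72 FPKM, were not called. The related ligand Vegfd is listed under its older symbol Figf and so is not among the 60. It had 0.115 ± 0.0529 FPKM at day 0, 1.43 ± 0.195 at day 3 and 0.544 ± 0.0573 at day 21, and rose at day 3 (log2 3.61 ± 0.32, edgeR adjusted p 2.23e-05) and at day 21 (2.15 ± 0.35, 0.00188) against day 0.

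For each of the VEGF receptors Flt4, Kdr and Flt1, every day 3 library lay above day 0 and every day 21 library below day 3. They differed in where day 21 lay against day 0. Flt4, the receptor of Vegfc and Vegfd, had 1.14, 0.989 and 0.872 FPKM at day 0, 2.62, 2.95 and 2.83 FPKM at day 3, and 1.41, 0.667 and 1.18 FPKM at day 21. Day 3 lay above both other days, which overlapped. Flt4 was higher at day 3 than at day 0 by 1.43 ± 0.25 (edgeR adjusted p 0.00136) and lower at day 21 than at day 3, with a log2 fold change of -1.43 ± 0.25 (adjusted p 0.00314).

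Kdr, the main signalling receptor of Vegfa, had 3.23, 3.21 and 3.30 FPKM at day 0, 5.26, 5.07 and 5.34 FPKM at day 3, and 2.25, 1.16 and 2.48 FPKM at day 21. No 2 days overlapped: every day 3 library lay above day 0 and every day 21 library below it. At day 21 Kdr was lower than at day 3 by a log2 fold change of -1.48 ± 0.25 (edgeR adjusted p 0.00266), and lower than at day 0 by -0.84 ± 0.25 (adjusted p 0.0303). The second of these was lost without any 1 day 0 library or day 3 replicate 1 (adjusted p 0.0504 to 0.0839). The value at day 3 against day 0, 0.63 ± 0.24, missed the threshold (adjusted p 0.0602). Without day 21 replicate 2, Kdr was called in all 3 comparisons, at 0.63 (2.37e-05) for day 3 and -0.57 (0.000321) for day 21 against day 0, and -1.20 (3.24e-06) for day 21 against day 3. Over the same days the endothelial marker sum was highest at day 3, and at day 21 it overlapped day 0.

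Flt1, which binds Vegfa tightly and acts largely as a trap for it, had 6.23, 6.31 and 6.17 FPKM at day 0, 8.61, 8.79 and 8.92 FPKM at day 3, and 7.83, 4.0 and 8.18 FPKM at day 21. Day 21 replicate 2 alone lay below day 0. With it, no Flt1 comparison was called, and day 21 against day 0 was -0.02 ± 0.24 (edgeR adjusted p 0.959). Day 3 against day 0 was then 0.44 ± 0.24 (0.167) and day 21 against day 3 -0.46 ± 0.24 (0.188). Without day 21 replicate 2, Flt1 was higher at day 3 (0.44, adjusted p 5.41e-05) and at day 21 (0.25, adjusted p 0.00671) than at day 0, and lower at day 21 than at day 3 (-0.19, adjusted p 0.0252), so the call and the sign at day 21 change with that library.

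**Figure D4:**
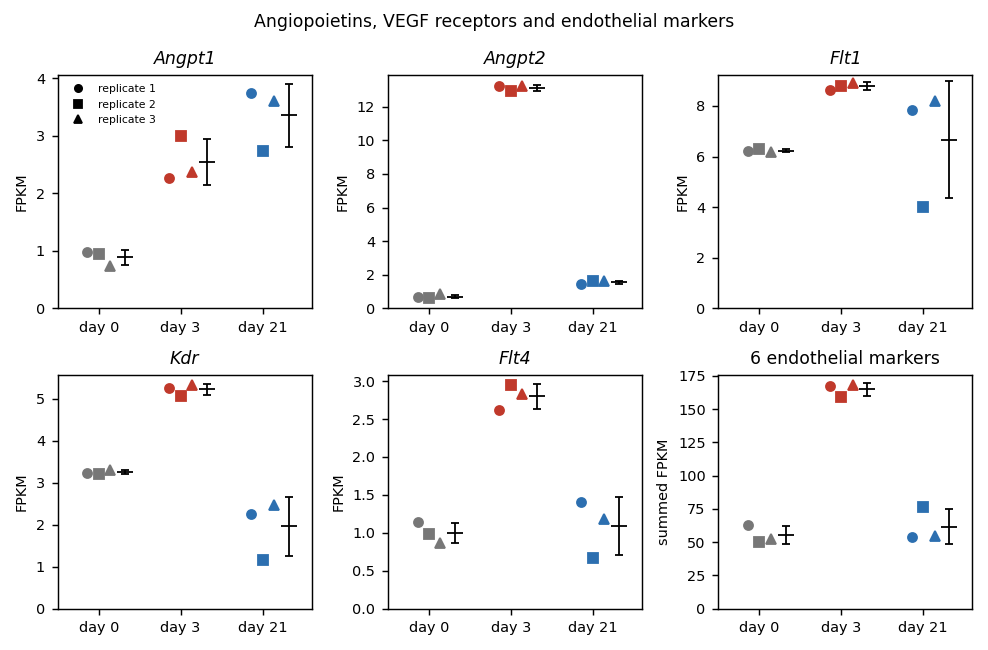
FPKM of Angpt1, Angpt2, Flt1, Kdr and Flt4 and the summed FPKM of 6 endothelial markers at days 0, 3 and 21, with a point per library, marked by replicate, and bars for the mean and SD of 3 libraries. Angpt2 stands at 12.9 to 13.2 FPKM at day 3 alone, and Kdr lies above day 0 at day 3 and below it at day 21.

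The summed FPKM of the IGF binding proteins Igfbp2 to Igfbp7 was 76.1 ± 1.97 at day 0, 394 ± 12.3 at day 3 and 247 ± 80.0 at day 21 (SD, n = 3 each), with no overlap between days (exact permutation p = 0.1 for each pair, the smallest possible). All 6 were called higher at day 3, and 5 of them at day 21 against day 0. Igfbp1 was not tested, with 0, 4 and 0 counts in all at days 0, 3 and 21.

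The binding proteins that were high at day 3 and lower at day 21, Igfbp2, Igfbp3, Igfbp4 and Igfbp7, are shown by the 250 bases before their RefSeq transcription start (GRCm38.p6), since they moved together. Capitals mark any match, on either strand, to the TATA box TATAAA, the AP-1 motif TGANTCA, the GC box GGGCGG or ACGTG, the core of the hypoxia response element. No match of 1 motif overlapped a match of another in these windows. The windows are chr1:72824230-72824479 on the plus strand, chr11:7213924-7214173 on the minus strand, chr11:99040994-99041243 on the plus strand and chr5:77408046-77408295 on the minus strand, and each is written 5′ to 3′ along its gene.
Igfbp2: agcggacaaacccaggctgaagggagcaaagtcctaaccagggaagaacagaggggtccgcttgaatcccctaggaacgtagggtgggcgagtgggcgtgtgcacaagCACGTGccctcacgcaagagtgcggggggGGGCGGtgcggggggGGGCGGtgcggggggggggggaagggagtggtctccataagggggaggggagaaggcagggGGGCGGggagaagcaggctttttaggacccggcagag
Igfbp3: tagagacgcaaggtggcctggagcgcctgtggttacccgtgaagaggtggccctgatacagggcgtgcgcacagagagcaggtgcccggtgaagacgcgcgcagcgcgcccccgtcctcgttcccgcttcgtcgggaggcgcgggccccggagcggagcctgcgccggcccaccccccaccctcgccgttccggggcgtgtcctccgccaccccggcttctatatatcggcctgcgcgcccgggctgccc
Igfbp4: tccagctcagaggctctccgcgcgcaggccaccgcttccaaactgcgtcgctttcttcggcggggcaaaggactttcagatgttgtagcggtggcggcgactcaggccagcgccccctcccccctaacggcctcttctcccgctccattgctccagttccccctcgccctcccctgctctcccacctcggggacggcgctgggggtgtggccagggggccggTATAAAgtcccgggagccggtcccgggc
Igfbp7: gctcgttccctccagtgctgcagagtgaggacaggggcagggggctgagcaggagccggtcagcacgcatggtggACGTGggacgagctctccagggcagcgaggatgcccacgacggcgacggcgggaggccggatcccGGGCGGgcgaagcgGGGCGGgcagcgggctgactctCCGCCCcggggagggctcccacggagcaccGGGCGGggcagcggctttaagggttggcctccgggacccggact

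These windows share a high GC content, 67.2% for Igfbp2, 73.2% for Igfbp3, 69.2% for Igfbp4 and 74.0% for Igfbp7, against a median of 52.4% over 32851 promoters, but no motif was common to all 4. Igfbp2 held 3 GC boxes and 2 hypoxia response cores, which are a single palindrome read on both strands. Over all RefSeq promoters, Igfbp2 was also among the genes with an AP-1 match, which lies outside the window shown. Igfbp7 held 4 GC boxes and 1 such core, Igfbp4 a single TATA box, and Igfbp3 none of the motifs. Over all promoters, 32.7% held a GC box, 16.6% the hypoxia response core, 12.4% the TATA box and 6.75% the AP-1 motif. These matches describe letters and not binding.

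Igfbp3, the main carrier of IGFs in blood, had 5.62, 4.90 and 5.76 FPKM at day 0, 72.7, 68.2 and 71.1 FPKM at day 3, and 7.73, 8.51 and 6.54 FPKM at day 21. Day 3 stood alone, and day 21 lay just above day 0 without overlap. Igfbp3 was 12.5-fold higher at day 3 than at day 0 (log2 3.65 ± 0.13, edgeR adjusted p 1.07e-07), and at day 21 it was lower than at day 3 by a log2 fold change of -3.29 ± 0.13 (adjusted p 1.29e-06). The remaining difference from day 0 at day 21, 0.36 ± 0.12, was called at adjusted p 0.0485 and lost without any 1 day 0 or day 3 library or day 21 replicate 1 (0.0732 to 0.168).

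Igfbp7, a binding protein of low IGF affinity found in vessel walls, had 17.2, 16.2 and 15.9 FPKM at day 0, 115, 136 and 117 FPKM at day 3, and 49.7, 84.3 and 44.1 FPKM at day 21. The days were fully separate, with the highest day 21 value in replicate 2. It rose 7.19-fold at day 3 (log2 2.85 ± 0.22, edgeR adjusted p 1.04e-05) and 3.29-fold at day 21 (1.72 ± 0.22, adjusted p 0.000478) against day 0. Igfbp4, whose hold on IGFs is cut by the protease Pappa, had 4.14, 5.23 and 6.24 FPKM at day 0, 32.2, 33.4 and 20.2 FPKM at day 3, and 10.8, 15 and 9.24 FPKM at day 21. Day 3 replicate 3 lay below the other day 3 libraries but above every other library. Igfbp4 rose at day 3 (2.40 ± 0.26, edgeR adjusted p 8.16e-05) and at day 21 (1.03 ± 0.25, adjusted p 0.0148). The day 21 call was lost without day 0 replicate 1 (0.0565) and with voom sample weights (0.0768).

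Igfbp6, which prefers IGF2 over IGF1, was highest at day 21. It had 17.7, 16.4 and 14.3 FPKM at day 0, 52.4, 48 and 52.1 FPKM at day 3, and 78.0, 140 and 56.5 FPKM at day 21. The days did not overlap, but day 21 replicate 2 lay far above the other day 21 libraries. The rises were 3.04-fold at day 3 (log2 1.60 ± 0.28, edgeR adjusted p 0.00136) and 5.17-fold at day 21 (2.37 ± 0.28, adjusted p 0.00036) against day 0. Day 21 against day 3 was 0.77 ± 0.27 with adjusted p 0.0631. It was called without day 21 replicate 2 (0.35, adjusted p 0.0498) and without replicate 3 (1.01, adjusted p 0.0115).

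Igfbp2, at 19.2 to 22.4 FPKM at day 0, 71.7 to 74.4 at day 3 and 25.2 to 58.0 at day 21, rose at day 3 (log2 1.79 ± 0.27, edgeR adjusted p 0.000612). At day 21 it was lower than at day 3 by -1.07 ± 0.27 (adjusted p 0.0169), a call lost without day 21 replicate 1 or day 3 replicate 1 or 3 (0.0507 to 0.0577). Its day 21 difference from day 0, 0.72 (adjusted p 0.0705), was called without day 21 replicate 2 at 0.27 (0.0131). Igfbp5, a matrix-bound member, ranged over 11.2 to 13.2, 45.7 to 50.4 and 31.5 to 44.7 FPKM at days 0, 3 and 21. It rose at day 3 (1.88 ± 0.16, adjusted p 1.62e-05) and at day 21 (1.54 ± 0.16, adjusted p 0.00014) against day 0, with no call between day 21 and day 3 (-0.34 ± 0.15, adjusted p 0.136).

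The make-up of the group changed with time. The table's gene models hold 100% (Igfbp6) to 165% (Igfbp5) of the GENCODE M21 exon bases, so the order of these genes by FPKM depends on the models and is not given. The sizes of the shares below, and of the ratios between genes given elsewhere, depend on them too. Igfbp3 took 7.13 ± 0.642% of the summed FPKM at day 0, 18.0 ± 0.949% at day 3 and 3.21 ± 0.593% at day 21, and Igfbp6 took 21.2 ± 1.71%, 12.9 ± 0.946% and 36.0 ± 5.59% (SD, n = 3 each). Neither share overlapped between days (exact permutation p = 0.1 for each pair, the smallest possible).

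**Figure D5:**
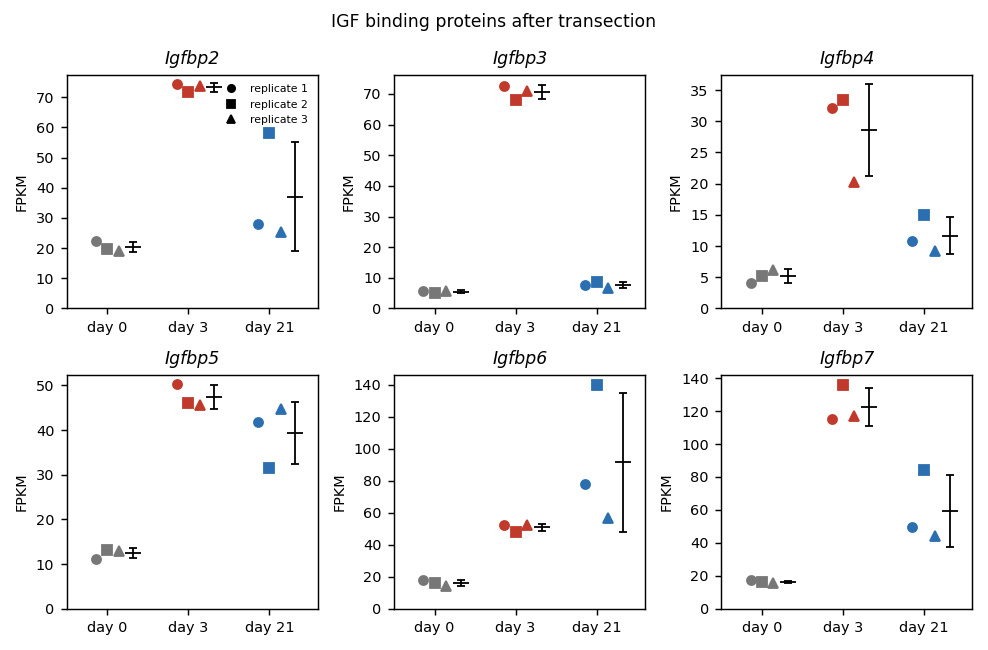
FPKM of the 6 tested IGF binding proteins in each library at days 0, 3 and 21, with a point per library, marked by replicate, and bars for the mean and SD of 3 libraries. Igfbp3 stands at 68.2 to 72.7 FPKM at day 3 alone, while Igfbp6 is highest at day 21, where replicate 2 reaches 140.

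Of the IGF ligands and receptor, Igf2, a fetal growth factor made in the adult by the meninges and choroid plexus, had 3.18, 2.82 and 4.0 FPKM at day 0, 10.9, 18.8 and 7.42 FPKM at day 3, and 12.5, 14 and 5.78 FPKM at day 21. The injured libraries all lay above day 0 but were widely scattered. The log2 fold changes against day 0 were 1.84 ± 0.40 at day 3 (edgeR adjusted p 0.00479) and 1.56 ± 0.39 at day 21 (0.0168). The day 21 call was lost without day 0 replicate 1 or 2 or day 21 replicate 2 (0.0622 to 0.0732) and with voom sample weights (0.0786). Of the Igf2 exon bases 64.5% overlap Gm49394 or Igf2os, and how strand was used in counting is not stated, so reads of these genes may be mixed and the Igf2 level is uncertain. Igf1r, the receptor of both IGFs, had 6.64 to 6.95 FPKM at day 0, 6.97 to 7.24 at day 3 and 6.79, 1.67 and 6.15 at day 21, with no call. Its gene model is 4489 bases, 26.7% of its 16791 exon bases in GENCODE M21, so the counts may not cover the whole gene. Igf1, which the symbol rule left out, had 0.561 ± 0.0270 FPKM at day 0, 3.28 ± 0.0649 at day 3 and 4.17 ± 0.255 at day 21, and rose at both days against day 0 (log2 2.49 ± 0.11 and 2.77 ± 0.11, edgeR adjusted p 2.99e-07 and 8.28e-07).

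Among the secreted FGFs Fgf7, keratinocyte growth factor, a product of fibroblasts, rose. Its levels were 0.234, 0.207 and 0.268 FPKM at day 0, 1.10, 1.03 and 1.13 FPKM at day 3, and 0.760, 0.611 and 0.685 FPKM at day 21. The 3 days were fully separate. It was 4.42-fold higher at day 3 (log2 2.14 ± 0.18, edgeR adjusted p 1.46e-05) and 2.65-fold higher at day 21 (1.41 ± 0.18, adjusted p 0.000553) than at day 0, and lower at day 21 than at day 3 by a log2 fold change of -0.74 ± 0.17 (adjusted p 0.0108).

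Fgf9 and Fgf10 moved the other way. Fgf9, glia-activating factor, had 6.31, 4.59 and 5.66 FPKM at day 0, 2.07, 1.96 and 2.15 FPKM at day 3, and 3.77, 5.36 and 4.02 FPKM at day 21. Day 3 lay below all other libraries, at a log2 fold change of -1.47 ± 0.16 against day 0 (edgeR adjusted p 8e-05). At day 21 it was higher than at day 3 by 1.01 ± 0.16 (adjusted p 0.00194). Its difference from day 0 at day 21, -0.46 (adjusted p 0.0536), was called without day 21 replicate 2 at -0.61 (0.00271). Fgf10 had 1.68, 1.48 and 1.37 FPKM at day 0, 0.445, 0.533 and 0.761 FPKM at day 3, and 1.23, 1.07 and 1.67 FPKM at day 21. Again day 3 alone was low, by a log2 fold change of -1.43 ± 0.24 against day 0 (adjusted p 0.00116), and at day 21 it was higher than at day 3 by 1.12 ± 0.24 (adjusted p 0.00924).

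Fgf1, acidic FGF, which lacks a signal peptide and binds all FGF receptors, had 39.5 to 45.4 FPKM at day 0, 27.2 to 28.3 at day 3 and 30.2 to 37.4 at day 21. Both injured groups lay below day 0, by log2 fold changes of -0.69 ± 0.12 at day 3 (edgeR adjusted p 0.00138) and -0.47 ± 0.12 at day 21 (0.0169), the day 21 call being lost without day 0 replicate 2 or 3 (0.064 and 0.0661). Fgf1 was higher at day 21 than at day 3 without day 21 replicate 2 (0.31, adjusted p 0.0117), against 0.22 (0.215) with it. Of the other ligands, Fgf18 fell at day 3 (-0.54 ± 0.18, 4.77 to 8.51 FPKM over all libraries), as did Fgf3 (-0.76 ± 0.27, 0.776 to 2.44 FPKM) and Fgf5 (-1.10 ± 0.28, 0.120 to 0.336 FPKM), with edgeR adjusted p 0.0342, 0.0467 and 0.0103. The Fgf5 call was lost with DESeq2 (0.0658, over alternatives 0.00524 to 0.0658). The Fgf18 call was lost without any 1 day 3 library or day 0 replicate 2 or 3 (0.0628 to 0.117). Without day 21 replicate 2 Fgf18 was lower at day 21 than at day 0 (-0.66, 0.007), against -0.49 (0.0678) with it. Fgf3 was also lower at day 21 than at day 0 (-0.94 ± 0.28, adjusted p 0.0312). Its day 3 call was lost without day 0 replicate 1 or 3, any day 3 library or day 21 replicate 1 (0.0591 to 0.175), and its day 21 call without day 0 replicate 1 or 3 or day 21 replicate 1 or 3 (0.0538 to 0.121). Fgf22 (2.73 to 5.53 FPKM) was not called.

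Fgf2, basic FGF, a mitogen of glia, fibroblasts and endothelium, was decided by a single library. It had 0.926, 1.10 and 0.903 FPKM at day 0, 4.85, 5.14 and 4.88 FPKM at day 3, and 5.27, 0.0634 and 5.58 FPKM at day 21. Day 21 replicate 2 held 8 counts, while replicates 1 and 3 held 720 and 692, and the other 8 libraries separated injured from day 0 cord without overlap. With all 9 libraries the day 3 difference from day 0, 2.29 ± 0.95, was not called (edgeR adjusted p 0.0797), nor was that of day 21, 1.79 ± 0.94 (0.19). Without day 21 replicate 2 Fgf2 was higher at day 3 by 2.30 ± 0.09 (adjusted p 2.63e-08) and at day 21 by 2.37 ± 0.10 (adjusted p 1.54e-07). The ratio of Fgf1 to Fgf2 FPKM was 44.7 ± 4.91 at day 0 and 5.63 ± 0.171 at day 3 (SD, n = 3 each), and at day 21 it was 6.56, 476 and 6.71.

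The intracellular FGFs, Fgf11 to Fgf14, are not secreted and bind voltage-gated sodium channels in neurons. Fgf12 ranged over 28.7 to 30.7 FPKM at day 0, 16.8 to 17.4 at day 3 and 26.0 to 40.4 at day 21, and Fgf11 over 11.0 to 13.9, 6.26 to 6.76 and 8.35 to 10.6. Both were lower at day 3 than at day 0, at -0.86 ± 0.16 for Fgf12 (edgeR adjusted p 0.00226) and -1.07 ± 0.15 for Fgf11 (0.000387). Both were higher at day 21 than at day 3, by 0.91 ± 0.16 (0.00354) and 0.52 ± 0.15 (0.0304). Fgf11 alone of the pair was called below day 0 at day 21 (-0.55 ± 0.15, adjusted p 0.0225). Its day 21 calls were lost without day 0 replicate 2 or 3 (0.0813 and 0.0835, against day 0) and without day 21 replicate 1 or 3 or any day 3 library (0.0735 to 0.102, against day 3). Fgf12 was higher at day 21 than at day 0 without day 21 replicate 2 (0.22, adjusted p 0.0478), against 0.06 (0.83) with it. Fgf13 (8.32 to 13.2 FPKM) and Fgf14 (1.22 to 3.55 FPKM) had log2 fold changes at day 3 of -0.33 ± 0.15 and -0.97 ± 0.37 (adjusted p 0.111 and 0.0619). Both were called lower at day 3 without day 21 replicate 2 (0.00608 and 0.049), and Fgf14 also without day 0 replicate 1 (0.00571), the lowest Fgf14 library of day 0 at 1.30 FPKM. Fgf14 was also higher at day 21 than at day 3 without day 21 replicate 2 (1.30, adjusted p 0.0277), against 1.05 (0.0658) with it. Over the same days the pan-neuronal marker sum was lowest at day 3.

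The FGF receptors diverged. Fgfr2, prominent in oligodendrocytes and astrocytes, had 8.91, 8.24 and 8.55 FPKM at day 0, 4.14, 4.04 and 4.31 FPKM at day 3, and 7.02, 6.78 and 6.98 FPKM at day 21. The days were fully separate with narrow ranges. Fgfr2 was lower at day 3 than at day 0 by a log2 fold change of -1.09 ± 0.09 (edgeR adjusted p 1.4e-05) and still lower at day 21 (-0.43 ± 0.09, adjusted p 0.00699), and it was higher at day 21 than at day 3 by 0.66 ± 0.09 (0.000866). The day 21 call against day 0 was lost in an edgeR fit of these 2 groups alone (0.0504, over alternatives 1.82e-06 to 0.0504). The oligodendrocyte marker sum ranged over 1900 to 2000 at day 0, 1830 to 1860 at day 3 and 1820 to 1900 at day 21, and the astrocyte sum over 354 to 370, 399 to 442 and 342 to 499. Single markers did not all follow these sums. At day 3 against day 0, 1 of 6 oligodendrocyte markers was higher and 3 lower (median log2 fold change -0.26). Of 6 astrocyte markers 3 were higher and 2 lower (0.22). Of all tested genes 24.8% were higher and 19.5% lower. The part of these cells in the Fgfr2 values was not tested.

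Fgfr1, the most broadly expressed receptor, ranged over 9.85 to 10.8 FPKM at day 0, 13.7 to 13.9 at day 3 and 11.6 to 12.6 at day 21, and rose at day 3 (0.36 ± 0.09, edgeR adjusted p 0.0106). The call was lost with no expression filter (0.0832, over alternatives 7.75e-05 to 0.0832). Fgfr1 was lower at day 21 than at day 3 without day 21 replicate 2 (-0.28, adjusted p 0.00696), against -0.27 (0.0555) with it. The ratio of Fgfr1 to Fgfr2 FPKM was 1.21 ± 0.101 at day 0, 3.32 ± 0.0893 at day 3 and 1.74 ± 0.102 at day 21 (SD, n = 3 each), without overlap between days (exact permutation p = 0.1 for each pair, the smallest possible). Fgfr3, an astrocyte receptor, was at 12.5 to 15.9, 9.09 to 11.0 and 6.24 to 13.1 FPKM and was not called in the edgeR fit of all 9 libraries. Its values there against day 0 were -0.54 ± 0.24 at day 3 (adjusted p 0.0982) and -0.65 ± 0.24 at day 21 (0.0734). Fgfr3 was lower at day 3 than at day 0 without day 21 replicate 2 (-0.55, adjusted p 0.00847) or replicate 1 (0.036), in an edgeR fit of these 2 groups (0.00145) and with voom sample weights (0.00734). At day 21 it was lower than at day 0 without day 21 replicate 1 (0.0113), with DESeq2 (0.0389), in edgeR with no expression filter (0.0442) and with the replicate number as a block (0.0372). Fgfr4, at 0.111 to 0.156, 0.696 to 1.04 and 0.349 to 0.601 FPKM, rose 6.30-fold at day 3 (log2 2.66 ± 0.30, adjusted p 9.09e-05) and 3.04-fold at day 21 (1.61 ± 0.31, 0.00475) against day 0. Its lower level at day 21 than at day 3 (-1.05 ± 0.26, 0.0171) was lost without day 21 replicate 1 or 3 or day 3 replicate 1 or 3 (0.0523 to 0.0734).

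The PDGF ligands were unlike one another. Pdgfb, which endothelial cells and platelets release to recruit mural cells, had 6.51, 5.35 and 5.78 FPKM at day 0, 12.6, 12.2 and 11.7 FPKM at day 3, and 9.27, 9.61 and 9.42 FPKM at day 21. The days were fully separate. It rose at day 3 (log2 1.0 ± 0.10, edgeR adjusted p 5.24e-05) and at day 21 (0.56 ± 0.10, 0.00357) against day 0, and its lower level at day 21 than at day 3 (-0.44 ± 0.10, 0.0118) was lost without day 3 replicate 1 (0.0566). Pdgfd, a ligand of the same receptor, had 5.23, 5.13 and 4.24 FPKM at day 0, 3.06, 3.37 and 3.92 FPKM at day 3, and 5.86, 5.06 and 5.88 FPKM at day 21. Day 3 lay below both other days, which overlapped. It fell at day 3 (-0.55 ± 0.14, adjusted p 0.0123) and was higher at day 21 than at day 3 (0.63 ± 0.14, 0.0114), both calls being lost without day 3 replicate 1 (0.0571 and 0.0561).

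Pdgfc, a ligand of Pdgfra, had 0.664, 0.721 and 0.714 FPKM at day 0, 1.06, 0.965 and 0.997 FPKM at day 3, and 1.07, 0.874 and 1.17 FPKM at day 21. All injured libraries lay above day 0. The day 3 difference, 0.47 ± 0.16 (edgeR adjusted p 0.0336), did not hold when any 1 day 0 or day 3 library was left out (0.0671 to 0.106). The day 21 difference from day 0, 0.45 (adjusted p 0.0572), was called without day 21 replicate 2 at 0.57 (0.00508). Pdgfa, a mitogen of oligodendrocyte precursors, had 5.60 to 6.08 FPKM at day 0, 7.15 to 8.28 at day 3 and 5.43, 12.5 and 5.61 at day 21 and was not called. Without day 21 replicate 2 it was higher at day 3 than at day 0 (0.35, adjusted p 0.00199) and lower at day 21 than at day 3 (-0.54, adjusted p 0.000551). With that library these were 0.36 (0.331) and -0.06 (0.904). Of its exon bases 26.1% overlap a gene on the opposite strand.

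HGF and its receptor Met both rose. Met had 0.486, 0.356 and 0.417 FPKM at day 0, 1.32, 1.38 and 2.21 FPKM at day 3, and 0.735, 0.808 and 0.695 FPKM at day 21, with the days fully separate. It was 3.75-fold higher at day 3 (log2 1.91 ± 0.22, edgeR adjusted p 0.000109) and 1.63-fold higher at day 21 (0.70 ± 0.22, 0.0395) than at day 0, the day 21 call being lost without any 1 day 0 or day 21 library or day 3 replicate 2 (0.0504 to 0.13). Hgf itself was low, at 0.0226 to 0.0606 FPKM at day 0, 0.160 to 0.179 at day 3 and 0.0795 to 0.330 at day 21. It rose at day 3 (1.80 ± 0.52, adjusted p 0.0204) and at day 21 (1.97 ± 0.52, 0.0207). Without day 0 replicate 1 or 2, or without day 3 replicate 2 (day 3) or day 21 replicate 3 (day 21), these were lost (0.0563 to 0.0671 and 0.057 to 0.0703).

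Hbegf, heparin-binding EGF, a ligand of Egfr and Erbb4, had 9.75, 9.14 and 9.98 FPKM at day 0, 31.9, 33.3 and 32.4 FPKM at day 3, and 14, 15.3 and 14.4 FPKM at day 21. The days were fully separate and the spread within each was narrow. It was 3.26-fold higher at day 3 (log2 1.70 ± 0.09, edgeR adjusted p 1.14e-06) and 1.39-fold higher at day 21 (0.47 ± 0.09, 0.0051) than at day 0, and lower at day 21 than at day 3 (-1.23 ± 0.09, 3.52e-05). Egfr, its receptor, had 1.20, 1.26 and 1.18 FPKM at day 0, 2.22, 2.16 and 2.29 FPKM at day 3, and 2.64, 1.48 and 2.35 FPKM at day 21. Every injured library lay above day 0, with day 21 replicate 2 the lowest of them. Egfr rose at day 3 (0.82 ± 0.20, adjusted p 0.00936) and at day 21 (0.71 ± 0.20, 0.0281), the day 21 call being lost without any 1 day 0 library or day 21 replicate 1 or 3 (0.0678 to 0.0929).

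The neuregulins, ligands of the ErbB receptors, were lower or not called. Nrg1, which axons display to Schwann cells, had 10.7, 14.3 and 12.7 FPKM at day 0, 5.35, 6.31 and 5.36 FPKM at day 3, and 11.2, 4.18 and 9.71 FPKM at day 21. Day 3 lay below day 0, and at day 21 only replicate 2 was as low. Nrg1 fell at day 3 (log2 -1.20 ± 0.32, edgeR adjusted p 0.0146), a call lost without day 0 replicate 2 or day 3 replicate 1 or 3 (0.0505 to 0.0523). Nrg1 was higher at day 21 than at day 3 without day 21 replicate 2 (0.83, adjusted p 0.00158), against 0.50 (0.292) with it. The gene model of Nrg1 in the table is 2103 bases, 20.3% of its 10351 exon bases in GENCODE M21, so the counts may not cover all of its isoforms. The same limit holds for Fgf22, Hbegf and Fgf12, whose models are 21.8%, 49.1% and 49.4% of their exon bases.

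Nrg3, a ligand of Erbb4, had 1.86, 1.88 and 2.02 FPKM at day 0, 0.977, 0.925 and 0.998 FPKM at day 3, and 1.65, 0.926 and 1.69 FPKM at day 21. Day 3 lay below day 0, at -1.04 ± 0.22 (edgeR adjusted p 0.00421). The day 21 difference of -0.55 ± 0.22 (0.0878) was called without day 21 replicate 2, at -0.31 (0.0252). Day 21 lay above day 3 by 0.73 without that library (adjusted p 0.000253) and by 0.49 with it (0.134). Nrg2 (1.75 to 2.78 FPKM) and Nrg4 (0.0559 to 0.128 FPKM) were not called. Egf, at 0.05 to 0.228 FPKM, was higher at day 21 than at day 3 (1.21 ± 0.38, adjusted p 0.0429), a call lost without day 0 replicate 1, day 3 replicate 2 or 3, or day 21 replicate 1 or 3 (0.0581 to 0.14).

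The 12 untested genes were Fgf4, Fgf6, Fgf8, Fgf15, Fgf16, Fgf17, Fgf20, Fgf21, Fgf23, Igfbp1 and the Egfr ligands Areg and Ereg, none above 0.591 FPKM in any library. Fgf6 and Fgf8 had no counts. Summed over the 3 libraries of a day, Areg had 6, 23 and 7 counts at days 0, 3 and 21, and Fgf4 had 10, 41 and 18. Without day 21 replicate 2 Fgf4 passed the filter and was higher at day 3 than at day 0 (log2 2.17 ± 0.52, edgeR adjusted p 0.00468). Ereg had 0, 13 and 1. With the day 0 count set to a floor of 3 over the group, the 13 counts of day 3 give a 5.08-fold ratio per library total. The floor covers counting error at day 0 only. Counting error in the day 3 counts and the spread between libraries are left out, so this is not a lower bound on the fold.

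Other genes of these pathways were taken from lists of textbook members. Of all tested genes, 24.8% were higher and 19.5% lower at day 3 than at day 0. The shares were 17.9% and 11.3% at day 21 against day 0, and 11.7% and 16.1% at day 21 against day 3. Medians over all tested genes were 0.01, 0.02 and 0.02 in these comparisons. The counts and medians of every list below are to be read beside these values. Of 15 tested partner receptors and coreceptors, 11 were higher and 1 lower at day 3 (median log2 fold change 0.59), 4 higher and 1 lower at day 21 against day 0 (0.00), and none higher and 12 lower at day 21 against day 3 (-0.73). Pdgfrb, the receptor of Pdgfb on mural cells and fibroblasts, averaged 5.54 ± 0.122 FPKM at day 0, 17.7 ± 0.577 at day 3 and 7.75 ± 0.497 at day 21 (log2 1.62 ± 0.10 at day 3, edgeR adjusted p 2.76e-06). Erbb2, the coreceptor of neuregulin signalling, averaged 0.676 ± 0.0520, 4.23 ± 0.198 and 1.70 ± 0.190 FPKM (2.59 ± 0.13, 7.98e-07). Tie1, the Tie2 partner of endothelium, averaged 3.08 ± 0.282, 9.40 ± 0.509 and 3.57 ± 0.0293 FPKM (1.55 ± 0.11, 3.84e-06). Each thus had its highest mean at day 3.

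Feedback and target genes of receptor tyrosine kinase signalling had 8 of 20 higher and 1 lower at day 3 (median 0.15), 2 higher and 5 lower at day 21 against day 0 (-0.19), and 1 higher and 14 lower at day 21 against day 3 (-0.77). Fosl1, an AP-1 subunit, averaged 0.113 ± 0.0478 FPKM at day 0, 7.87 ± 0.424 at day 3 and 0.577 ± 0.116 at day 21, and rose at day 3 by 6.03 ± 0.27 (edgeR adjusted p 3.53e-07). Dusp6, a phosphatase that shuts off ERK, averaged 7.29 ± 0.440, 22.0 ± 1.19 and 10.1 ± 1.45 FPKM (1.54 ± 0.13, 1.74e-05). By contrast Spry4 and Etv5, FGF target genes, were lower at day 21 than at day 0 (-1.04 ± 0.15 and -0.84 ± 0.13, adjusted p 0.001 and 0.00168).

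Of 15 tested proteases and inhibitors that release or clear these factors, 10 were higher and 1 lower at day 3 (median 1.05) and 6 higher and 2 lower at day 21 (0.49) against day 0. Day 21 against day 3 had 1 higher and 8 lower (-0.57). Plau, urokinase, averaged 0.860 ± 0.0528 FPKM at day 0, 8.37 ± 0.663 at day 3 and 11.7 ± 0.476 at day 21. It rose at both days against day 0 (log2 3.23 ± 0.13 and 3.64 ± 0.13, edgeR adjusted p 2.15e-07 and 7.39e-07). Of 9 hypoxia-induced genes other than Vegfa, 5 were higher and 1 lower at day 3 (median 0.79). At day 21 1 was higher and 1 lower than at day 0 (-0.09), and none was higher and 4 were lower than at day 3 (-0.60). Adm, adrenomedullin, averaged 1.48 ± 0.267, 8.63 ± 0.390 and 1.36 ± 0.0383 FPKM at days 0, 3 and 21 (2.49 ± 0.15 at day 3, adjusted p 1.83e-06), and the glucose transporter Slc2a1 averaged 37.9 ± 1.46, 93.4 ± 1.55 and 39.2 ± 2.26 FPKM (1.25 ± 0.09, 6.55e-06).

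Of 7 other tested secreted factors (the ligands Igf1, Tgfa and Btc, the FGF carriers Fgfbp1 and Fgfbp3, and Esm1 and Apln), 4 were higher and 1 lower at day 3 (median 0.80), 3 higher and 1 lower at day 21 against day 0 (0.61), and 1 higher and 2 lower at day 21 against day 3 (-0.19). Besides Igf1, Esm1, a secreted product of sprouting endothelial tip cells, averaged 0.259 ± 0.0671 FPKM at day 0, 4.44 ± 0.324 at day 3 and 1.23 ± 0.258 at day 21 (log2 4.01 ± 0.24 at day 3, edgeR adjusted p 1.77e-06). Apln, the peptide ligand of the apelin receptor, fell, averaging 30.4 ± 2.33, 17.1 ± 0.109 and 17.2 ± 2.20 FPKM, with -0.88 ± 0.13 at day 3 (0.000562) and -0.94 ± 0.13 at day 21 (0.000901) against day 0.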

How the data were processed

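Per the labels, poly-A RNA of spinal cord was made into paired-end TruSeq libraries and sequenced on an Illumina instrument. The submitters' processing notes name HISAT2, StringTie and GRCh38, a human build, while the deposited loci are those of mouse GRCm38. Neither versions and settings nor strand handling are stated.

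The authors deposited whole-number counts per gene, not normalized, for 34745 genes, and no column was left unused. The deposited FPKM values equal count over gene length and library total, within 0.00117% over 12001 genes of at least 50 counts.

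Counts were tested with edgeR 4.0.16 in R 4.3.3 (TMM scaling, default filter, robust quasi-likelihood F test, two-sided), with all 9 libraries in 1 fit, no covariate and 6 residual degrees of freedom; the common BCV was 0.205. Adjusted p-values are Benjamini-Hochberg over 16494 genes, and a gene was called under 0.05. The fit was tested on simulated counts. Single ratios were compared by exact permutation.

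The members and lists were chosen with earlier results of these data known. Libraries are given one by one for called genes of at least 1 FPKM in a group mean (the 4 with the largest changes in larger families), and other genes by ranges. Of the partner lists up to 4 called genes were eligible to be named. Promoters were taken from RefSeq (GRCm38.p6), where 46 of the 60 symbols matched, and exon overlap from GENCODE M21. The alternatives were DESeq2 1.42.0, limma 3.58.1 on log2 FPKM (pseudocounts 1 and 0.1), voom with sample weights, median-of-ratios scaling, other filters, fits of 2 groups, a replicate block, and each library left out.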

Additional observations from a re-analysis of the deposited data

Results flagged for a closer look

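Kdr lay on opposite sides of day 0 on the 2 days after injury. Its log2 fold change was 0.63 at day 3 and -0.84 at day 21, both against day 0, with every day 3 library above day 0 and every day 21 library below it. The day 3 value was not called (edgeR adjusted p 0.0602), and the day 21 value (0.0303) was lost in 6 of 18 alternatives (0.0504 to 0.0905). The difference between day 21 and day 3 was -1.48 ± 0.25 (edgeR adjusted p 0.00266, n = 3 each), and -1.20 without day 21 replicate 2.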

How the results depend on the processing

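Of 144 results (48 genes in 3 comparisons), 74 were called. Over 18 alternatives 47 of these were never lost and 27 were lost at least once, while 34 of the 70 uncalled results were called at least once. Lost and gained calls given gene by gene are those with 1 library left out, unless another setting is named. Other settings changed further calls. Tested on genes of 5 FPKM or more in 3 libraries (28 of the growth factor genes), 12 were higher and 7 lower at day 3, 1 was lower at day 21 than at day 0, and 8 were lower at day 21 than at day 3; fewer genes were tested. With voom sample weights (0.0583 for day 21 replicate 2 and 0.354 for day 0 replicate 1), 11 were lower at day 21 than at day 0 and 14 higher at day 21 than at day 3. With edgeR on days 21 and 0 alone none was lower at day 21, 6 were at an unadjusted p under 0.05, and DESeq2 called 7; the cause was not tested. With 1 library left out, the counts ranged over 18 to 26 higher and 9 to 16 lower at day 3, 9 to 18 higher and 1 to 8 lower at day 21 against day 0, and 5 to 13 higher and 10 to 17 lower at day 21 against day 3. The share of all genes that passed can change with the setting too. Of the alternatives, it is given only for the fit without day 21 replicate 2. Flt1 at day 21 against day 0 was -0.02 in the edgeR fit, 0.21 with voom weights, 0.14 with the 5 FPKM filter and 0.03 with limma on log2 FPKM, and ranged over -0.20 to 0.25 with 1 library left out. With the replicate number as a block, 19 were higher and 11 lower at day 3, 12 and 4 at day 21 against day 0, and 5 and 13 at day 21 against day 3. The labels link same-numbered libraries by number only, and their deviations from the group means correlated at -0.146 to 0.107. Deviations within so small a group are bound to each other, so these values cannot show whether such libraries shared a batch. Under edgeR's default filter 12 of the 60 genes were not tested, while DESeq2 and edgeR without a filter tested 58.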
